A study of Mus musculus with 6 samples.

Results

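The 10 genes described here encode the proteins that cut peptides for MHC class I molecules and load them in the endoplasmic reticulum. They were chosen by symbol: Tap1, Tap2, Tapbp, Tapbpl, Erap1, Psmb8, Psmb9, Psmb10, Psme1 and Psme2. All 10 had a row among the 17217 rows of the deposited table. Levels came from bulk RNA sequencing of mouse bone marrow-derived macrophages, macrophages grown from marrow with M-CSF (30 ng/mL), the macrophage growth factor. There were 3 libraries labelled Cd74 knockout (CD74-/-) and 3 labelled Control (CD74+/+). Cells of both groups received lipopolysaccharide (LPS, a bacterial cell wall product) at 100 ng/mL for 24 h, so every value is from stimulated cells and no unstimulated level was analysed here. The protocol given with all 6 libraries speaks of marrow from 8-week-old wild-type mice, so genotype was taken from the sample titles and genotype labels. The question was how the transcriptome differs without CD74, which serves as chaperone (the invariant chain) to MHC class II molecules.

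MHC class I molecules show short peptides of cytosolic proteins to CD8 T cells. The proteasome cuts those proteins, and in immune cells 3 of its catalytic subunits are exchanged for immunoproteasome subunits, while the PA28 cap opens its entry gate. The TAP transporter carries the peptides into the endoplasmic reticulum. There tapasin bridges TAP to the class I heavy chain, the tapasin relative TAPBPR edits peptides away from TAP, and the aminopeptidase ERAP1 trims them. Interferons raise transcription of most of these genes through IRF1 and the coactivator NLRC5, among others, and macrophages express them strongly after LPS.

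All knockout libraries were batch 2 and all Control libraries batch 1, so genotype and batch cannot be told apart for any difference below. Whether replicates are separate animals or cultures is not in the labels; p-values cover the spread between these libraries, which may be technical. Values are TPM, a level scaled by gene length and by library total. Cd74 itself stood at 65.3, 64.6 and 63.1 TPM in the knockout libraries, against 632, 593 and 594 TPM in the Control libraries. The direction goes with the labels. Converted back to reads, 0 of the 3 knockout values of Cd74 came out whole, against 3 of 3 Control values, so the size of that difference is uncertain. All 10 genes described here came out whole in every library, with 746 to 14604 reads a value at depths of 36445458 to 59236597 reads. The macrophage genes Adgre1, Csf1r, Cd68, Lyz2, Itgam and Fcgr1 were above 1 TPM, Mrc1 was below 1 TPM, and Mertk, C1qa, C1qb and C1qc had no row. No T or NK cell marker of 6 had a row.

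Of the 10 genes, 3 rose and 1 fell in knockout macrophages. Tapbp (tapasin) was 38.2% higher, Erap1 27.2% higher and Psmb8 13.2% higher by mean TPM, while Tapbpl (TAPBPR) was 23.4% lower. The other 6 did not pass the test. In bulk RNA, fewer cells of a type and less RNA per cell cannot be told apart. A gene was called when limma, a linear model fitted to log2(TPM + 1) of the 13034 rows averaging 1 TPM or more, gave a Benjamini-Hochberg adjusted p under 0.05. By that rule 28.5% of all tested rows were called, 18.5% higher and 10.1% lower. The 4 calls are 40.0% of the 10 genes, and with so few genes this is no result about the group. The split of calls over all rows was 2406 higher and 1313 lower, but 1821 and 1714 under median-of-ratios scaling. The median log2 fold change of the 10 genes was 0.02, beside 0.04 over all tested rows. Groups did not overlap for 6 of the 10 genes, 3 higher and 3 lower in the knockout, against 50.0% of all tested rows (30.2% higher and 19.8% lower).

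**Figure D1:**
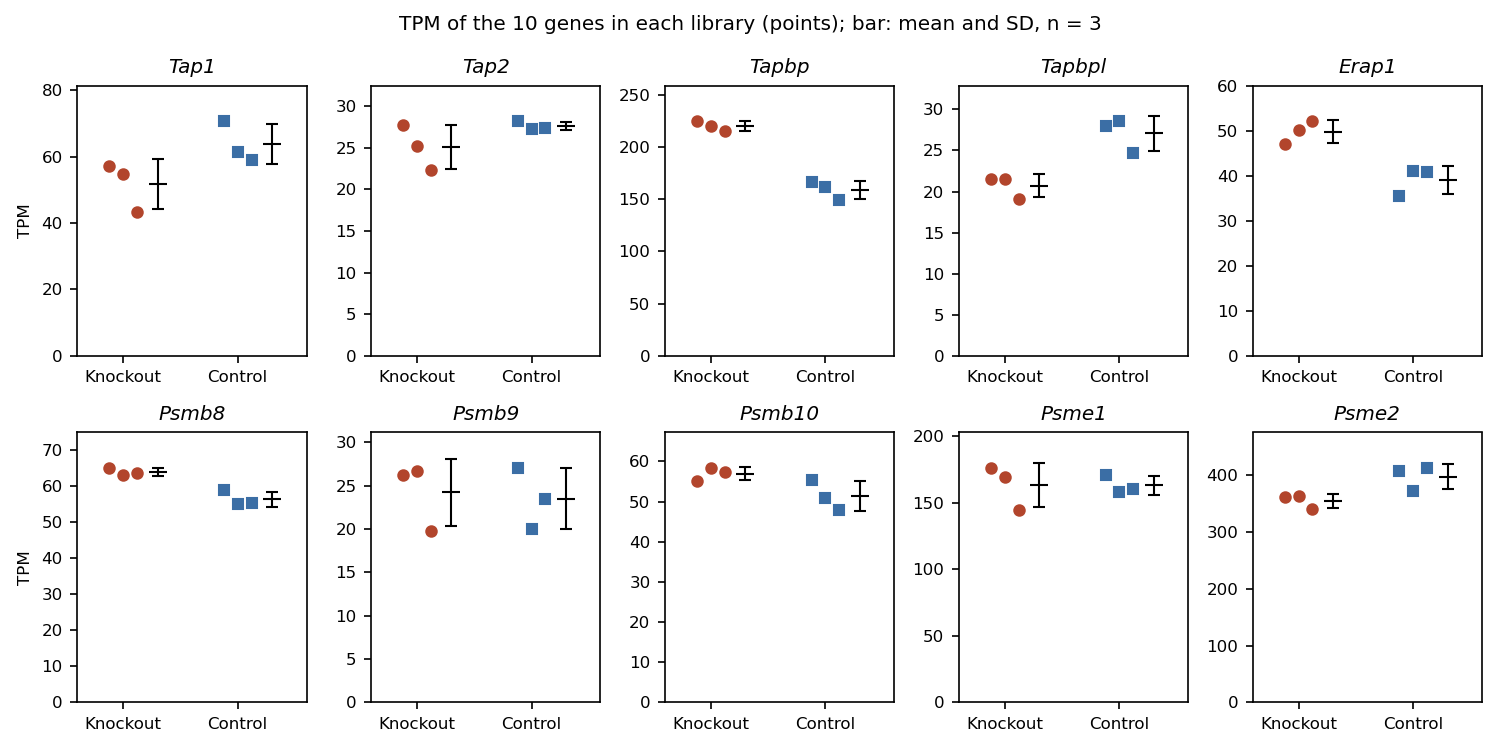
TPM (y axis, from 0) of the 10 genes in each knockout library (circles, left) and each Control library (squares, right), with the mean and SD of 3 libraries beside them. Tapbp sits at 216 to 225 TPM in knockout libraries and at 150 to 166 TPM in Control libraries, while the groups of Psmb9 and Psme1 overlap.

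Tap1 and Psmb9 lie head to head on chromosome 17. Their RefSeq transcription starts (GRCm38.p6) are 225 bases apart on opposite strands, and the stretch between is known from human cells as a shared, TATA-less promoter. It holds a GC box (GGGCGG, searched on both strands), shown in capitals because such boxes are a feature of promoters of this kind. The 30 bases shown are chr17:34187368-34187397 on the plus strand, with the box 176 bases before the Tap1 start.
Tap1 and Psmb9 shared stretch: cagactgaggccCCGCCCcatcatcgcgca
GC boxes occur in the 250 bases before 32.7% of RefSeq starts and in 6 of the 9 entries for 8 of the 10 genes. Tap1 and Psmb9 both count this same box, and Psme2 has more than 1 entry, so these entries are not independent.

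Tap1 and Tap2 encode the paired subunits of the peptide transporter. Tap1 stood at 57.3, 54.8 and 43.3 TPM in the knockout libraries and at 70.6, 61.5 and 59.1 TPM in the Control libraries. Every knockout value was below every Control value, yet the log2 fold change of -0.30 (SE 0.12) did not pass the test (limma adjusted p = 0.0897). Knockout replicate 3 was the lowest library, and without it the log2 fold change was -0.18 (adjusted p = 0.151). The call depended on the test, since limma-voom on recovered reads gave -0.33 with adjusted p = 0.0459.

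Tap2 held 27.7, 25.2 and 22.4 TPM in knockout libraries, against 28.2, 27.3 and 27.3 TPM in Control libraries. The groups overlapped and the log2 fold change was -0.14, with a 95% interval of -0.32 to 0.05 (limma adjusted p = 0.227). Without knockout replicate 3 it was -0.06. Within a library, Tap1 stood above Tap2 by a factor of 2.06 ± 0.121 in knockout libraries and 2.31 ± 0.178 in Control libraries (SD, n = 3 each). The groups overlapped in this ratio (exact permutation p = 0.2).

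Tapbp had the largest difference of the 10 genes. Tapasin, its product, holds empty class I molecules beside TAP until a peptide of sufficient affinity binds. Its level was 225, 220 and 216 TPM in the knockout libraries and 166, 162 and 150 TPM in the Control libraries. The lowest knockout value was well above the highest Control value. This is a log2 fold change of 0.47 (SE 0.05; adjusted p of 0.00286 by limma), larger in size than that of 86.5% of tested rows. The call held in all 14 alternatives run, with values of 0.41 to 0.50.

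Tapbpl moved the other way. Its product TAPBPR also edits class I peptides but works outside the TAP complex, and it brings in the glucosyltransferase UGGT1, which returns poorly loaded class I molecules to folding. The transcript stood at 21.6, 21.5 and 19.1 TPM in knockout libraries, against 28.003, 28.557 and 24.672 TPM in Control libraries. The groups did not overlap. Tapbpl fell by 0.37 on the log2 scale (SE 0.08), with a limma adjusted p of 0.0140. Without Control replicate 1 the value was -0.34 and the call was lost (adjusted p = 0.0513).

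The balance between the 2 editors can be read within each library, where scaling cancels. The Tapbpl/Tapbp ratio was 0.0960, 0.0976 and 0.0888 in knockout libraries and 0.168, 0.176 and 0.165 in Control libraries. The groups did not overlap, and the mean log2 ratio was lower in the knockout by 0.85 (pooled SD 0.06), the largest difference of the 8 ratios planned. For Tapbp every knockout value was above every Control value, and for Tapbpl every knockout value was below. The lack of overlap and the permutation p that follows were therefore fixed, and are no separate result. The exact two-sided permutation test gave p = 0.1, the smallest that 3 against 3 libraries allow, and 0.32 after Benjamini-Hochberg adjustment over the 8 ratios, so no ratio here could pass a threshold of 0.05.

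Erap1 encodes the aminopeptidase that shortens peptides from their N-terminal end inside the endoplasmic reticulum. It stood at 47.2, 50.2 and 52.2 TPM in knockout libraries and at 35.6, 41.1 and 40.9 TPM in Control libraries. All knockout values were above all Control values, with a log2 fold change of 0.34 (SE 0.07, limma adjusted p = 0.0141) and the call kept in all 14 alternatives (0.27 to 0.38). Within each group Erap1 ran against Tap1, though not against Tap1 alone. With group means removed, Pearson's r of Erap1 over the 6 libraries was negative with each other gene of the 10. It ran from -0.51 with Psme2 to -0.94 with Psmb8. Knockout replicate 3, lowest for Tap1, was the highest for Erap1, and Control replicate 1, highest for Tap1, was the lowest for Erap1.

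**Figure D2:**
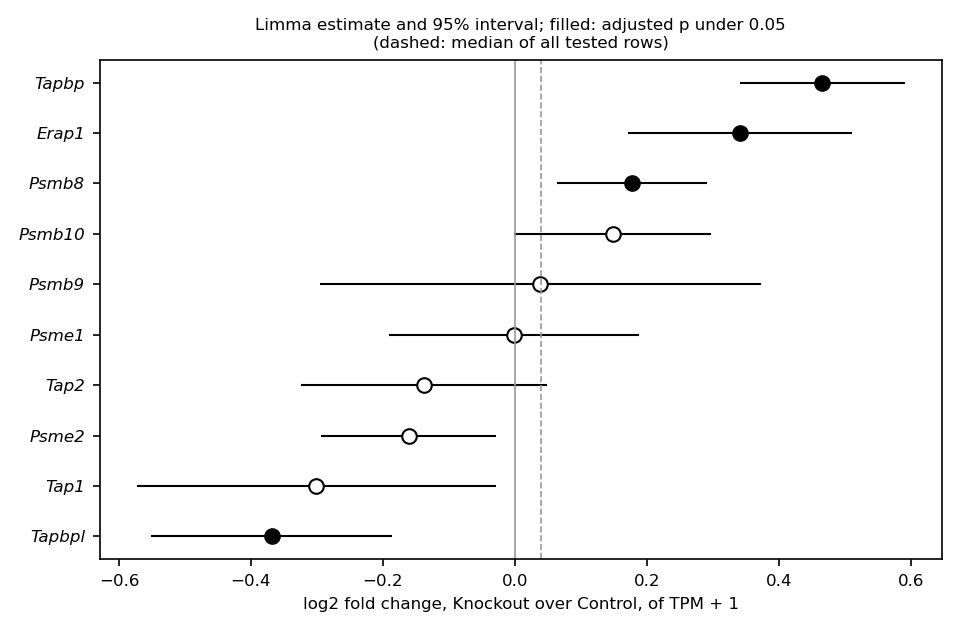
Log2 fold change of TPM + 1, knockout over Control (x axis), of the 10 genes (rows) with 95% intervals from limma; filled points passed the adjusted p of 0.05 and the dashed line marks the median of all tested rows, 0.04. The 10 genes run from -0.37 for Tapbpl to 0.47 for Tapbp, and the interval of Psmb9 spans -0.29 to 0.37.

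The 3 immunoproteasome subunits are LMP7 (Psmb8), LMP2 (Psmb9) and MECL1 (Psmb10), which take the places of the constitutive subunits encoded by Psmb5, Psmb6 and Psmb7. Psmb8 was the 1 of the 3 that rose. It stood at 65.0, 62.8 and 63.4 TPM in knockout libraries, against 58.7, 55.0 and 55.2 TPM in Control libraries, with no overlap. Its log2 fold change of 0.18 (SE 0.05) had a limma adjusted p of 0.0317, a size that 49.0% of tested rows fall below. This call was fragile. It was lost under median-of-ratios scaling (0.14), upper-quartile scaling (0.13) and limma-voom (0.16), without the trend and robust settings, and without Control replicate 2 or 3 (0.16 each) or knockout replicate 1 (0.16) or 2 (0.19).

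Psmb8 lies on chromosome 17, like Tap1, Tap2, Tapbp and Psmb9. The interferon motif ISRE, searched on both strands as GAAA, any 2 bases, then GAAA, matched in the 250 bases before the start of 0 of the 8 genes with a RefSeq promoter entry and before 2.98% of RefSeq starts. Tap2 and Tapbpl had no promoter entry.

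Psmb9 was the most variable of the 10 genes. It stood at 26.2, 26.7 and 19.7 TPM in the knockout libraries and at 27.1, 20.1 and 23.4 TPM in the Control libraries, with overlapping groups. The coefficient of variation was 16.0% in knockout and 14.9% in Control libraries, and the log2 fold change of 0.04 had a 95% interval of -0.29 to 0.37 (limma adjusted p = 0.861). Its sign turned in 4 alternatives, to -0.07 at the lowest without Control replicate 2, and it was 0.17 without knockout replicate 3.

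Psmb9 and Tap1, which share a promoter stretch, were also set against each other. Psmb9/Tap1 was 0.457, 0.488 and 0.456 in knockout libraries and 0.383, 0.326 and 0.396 in Control libraries. These groups did not overlap, with a mean log2 difference of 0.35 (pooled SD 0.11, exact permutation p = 0.1, the smallest possible). This ratio was chosen after the values were seen. Exons of Tap1 and Psmb9 overlap over 212 bp on opposite strands, and the strand setting of the counting was not given in the sources used here.

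Psmb10 held 55.3, 58.5 and 57.3 TPM in knockout libraries, against 55.5, 50.9 and 47.9 TPM in Control libraries. Only Control replicate 1 reached the knockout range. The log2 fold change was 0.15 (SE 0.06), with a 95% interval of 0.00 to 0.30, and the gene was not called (limma adjusted p = 0.118).

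The RNA of each immunoproteasome subunit was also set as a ratio to that of its constitutive partner. Exchange of the proteins themselves was not measured. Psmb8/Psmb5 was 0.375, 0.342 and 0.320 in knockout libraries and 0.340, 0.363 and 0.327 in Control libraries, with overlapping groups and a mean log2 difference of 0.01 (exact permutation p = 0.9). Psmb10/Psmb7 was 0.363 ± 0.0122 in knockout and 0.356 ± 0.0334 in Control libraries (SD, n = 3 each; exact permutation p = 0.8). Psmb9/Psmb6 was 0.0507 ± 0.00857 in knockout and 0.0439 ± 0.00527 in Control libraries (SD, n = 3 each; exact permutation p = 0.3). All 3 ratios overlapped between the groups. Psmb5, at 185 TPM in knockout and 164 TPM in Control libraries on average, had a log2 fold change of 0.17, beside 0.18 for Psmb8. Psmb6, at 478 TPM in knockout and 535 TPM in Control libraries on average, fell by 0.16 on the log2 scale (limma adjusted p = 0.0367), a call lost in 7 of the 14 alternatives, among them those without Control replicate 1, 2 or 3 or knockout replicate 1 or 2.

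Levels of different genes depend on the length used. The deposited values fit the summed length of all exons of a gene, which for Psmb9 is 3660 bp, against 1352 bp for its longest coding transcript. Over the length of the longest coding transcript, all its exons counted, Psmb8/Psmb5 would be 0.718 in knockout and 0.713 in Control libraries. Psmb9/Psmb6 would be 0.0585 in knockout and 0.0506 in Control libraries. Psmb10/Psmb7 would be lower, at 0.160 in knockout and 0.157 in Control libraries, and Tap1/Tap2 higher, at 3.47 in knockout and 3.89 in Control libraries. Comparisons of 1 gene between groups do not change with the length.

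**Figure D3:**
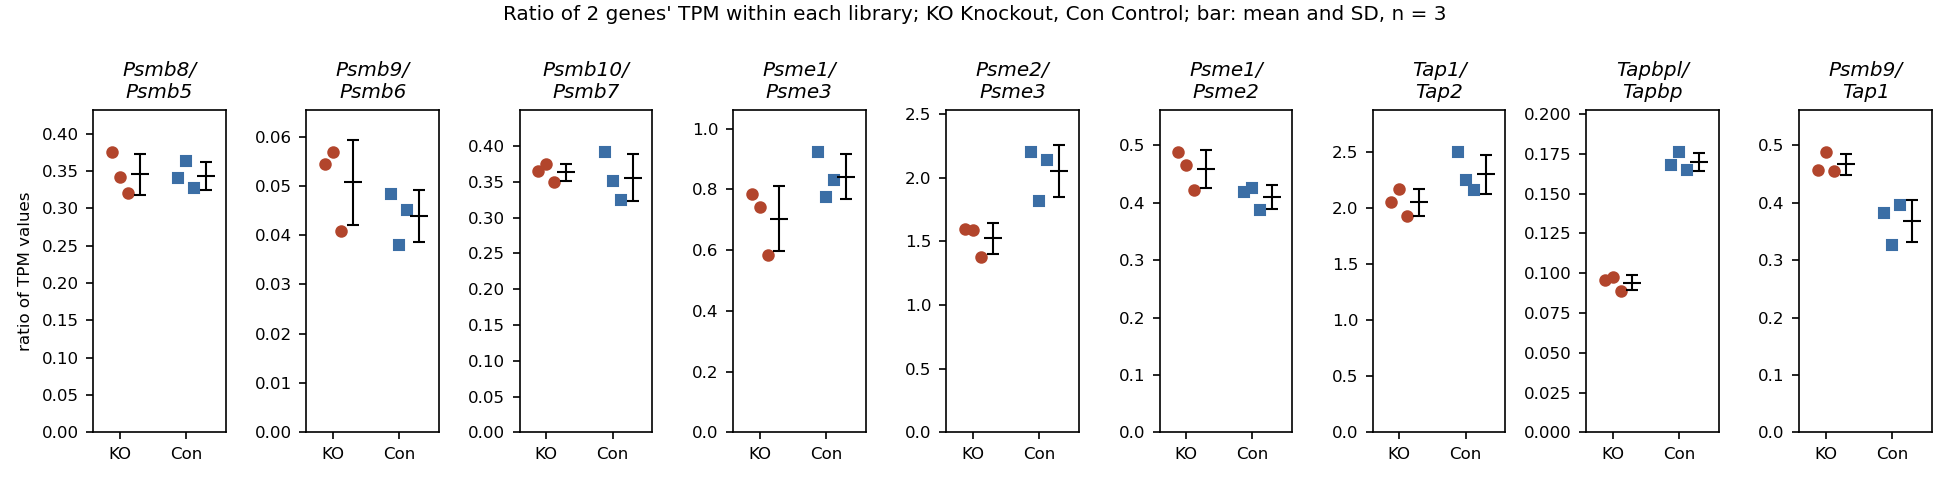
Ratio of the TPM of 2 genes within each library (y axes, from 0), with knockout (KO, circles) left of Control (Con, squares) and the mean and SD of 3 libraries. Tapbpl/Tapbp lies at 0.0888 to 0.0976 in knockout libraries and 0.165 to 0.176 in Control libraries, whereas the 3 ratios of immunoproteasome to constitutive subunits overlap.

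Psme1 and Psme2 encode the alpha and beta subunits of the PA28 cap. Psme1 stood at 176, 169 and 144 TPM in the knockout libraries, against 171, 158 and 160 TPM in the Control libraries. The groups overlapped and the log2 fold change was -0.0019, with a 95% interval of -0.19 to 0.19 (limma adjusted p = 0.988). Without knockout replicate 3, its lowest library, the value was 0.08.

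Psme2 was the most abundant of the 10 genes. It stood at 361, 363 and 341 TPM in knockout libraries and at 408, 372 and 413 TPM in Control libraries. The groups did not overlap, and the log2 fold change of -0.16 (SE 0.06) did not pass the test as planned (limma adjusted p = 0.0686). It passed under median-of-ratios scaling (-0.20, adjusted p = 0.0417), upper-quartile scaling (-0.21, adjusted p = 0.0423), limma-voom (-0.19, adjusted p = 0.0334) and without Control replicate 2 (-0.21, adjusted p = 0.0441). Psme2b, a close copy of Psme2 on another chromosome, had its own row at 45.9 ± 4.62 TPM in knockout and 50.8 ± 5.88 TPM in Control libraries (SD, n = 3 each), so reads may have been divided between the copies.

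The third cap subunit, PA28 gamma (Psme3), forms a separate nuclear cap. It rose to 234 TPM in knockout libraries, against 194 TPM in Control libraries on average, a log2 fold change of 0.27 (limma adjusted p = 0.0159) that lost its call without Control replicate 1 or 3 (adjusted p up to 0.0592). Of the 6 constitutive counterparts and other activators, Psme3 rose, Psmb6 fell and 4 were not called, with a median log2 fold change of 0.095. The 33.3% called is near the 28.5% of all tested rows. Psme2/Psme3 was 1.6, 1.59 and 1.38 in knockout libraries and 2.20, 1.82 and 2.14 in Control libraries. The groups did not overlap and the mean log2 ratio was lower in the knockout by 0.43 (exact permutation p = 0.1). Psme2 was lower and Psme3 higher in every knockout library than in every Control library, so this ratio could not overlap either. Psme1/Psme2 was 0.459 ± 0.0333 in knockout and 0.411 ± 0.0203 in Control libraries, with overlap (SD, n = 3 each; exact permutation p = 0.2). Psme1/Psme3 was 0.703 ± 0.106 in knockout and 0.842 ± 0.0744 in Control libraries, also with overlap (SD, n = 3 each; exact permutation p = 0.2).

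Other genes of the loading machinery went both ways. Of 10 peptide-loading partners, 4 rose, 1 fell and 5 were not called, with a median log2 fold change of 0.05. The 50.0% called stands beside 28.5% of all tested rows, over 10 genes only. Uggt1 had 54.8 ± 5.10 TPM in knockout and 42.8 ± 1.93 TPM in Control libraries, and Canx, a lectin chaperone gene, 830 ± 70.6 TPM in knockout and 681 ± 55.4 TPM in Control libraries (SD, n = 3 each). The disulfide isomerase gene Pdia3 had 1081 ± 86.4 TPM in knockout and 910.2 ± 50.8 TPM in Control libraries (SD, n = 3 each). Log2 fold changes of Uggt1, Canx and Pdia3 were 0.34, 0.29 and 0.25, with limma adjusted p = 0.0155, 0.0381 and 0.0385. Ganab, the glucosidase II catalytic subunit gene, was the fourth (0.17; named after its value was seen), and its partner Prkcsh fell by 0.15. Uggt1 lost its call without Control replicate 1 or 3 (adjusted p up to 0.0563). The calls of Canx, Pdia3, Ganab and Prkcsh each ended in 7 to 10 of the 14 alternatives, with adjusted p up to 0.112.

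The class I genes themselves, named after their values were seen, were not called. B2m stood at 5447, 5459 and 4644 TPM in knockout libraries, against 5059, 5035 and 5121 TPM in Control libraries. H2-K1 had 666 ± 77.9 TPM in knockout and 642 ± 60.8 TPM in Control libraries, and H2-D1 1536 ± 235 TPM in knockout and 1643 ± 130.0 TPM in Control libraries (SD, n = 3 each). Knockout replicate 3 was the lowest of the 6 libraries for all of B2m, H2-K1 and H2-D1. It was also the lowest for Tap1, Tap2, Tapbpl, Psmb9, Psme1 and Psme2.

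**Figure D4:**
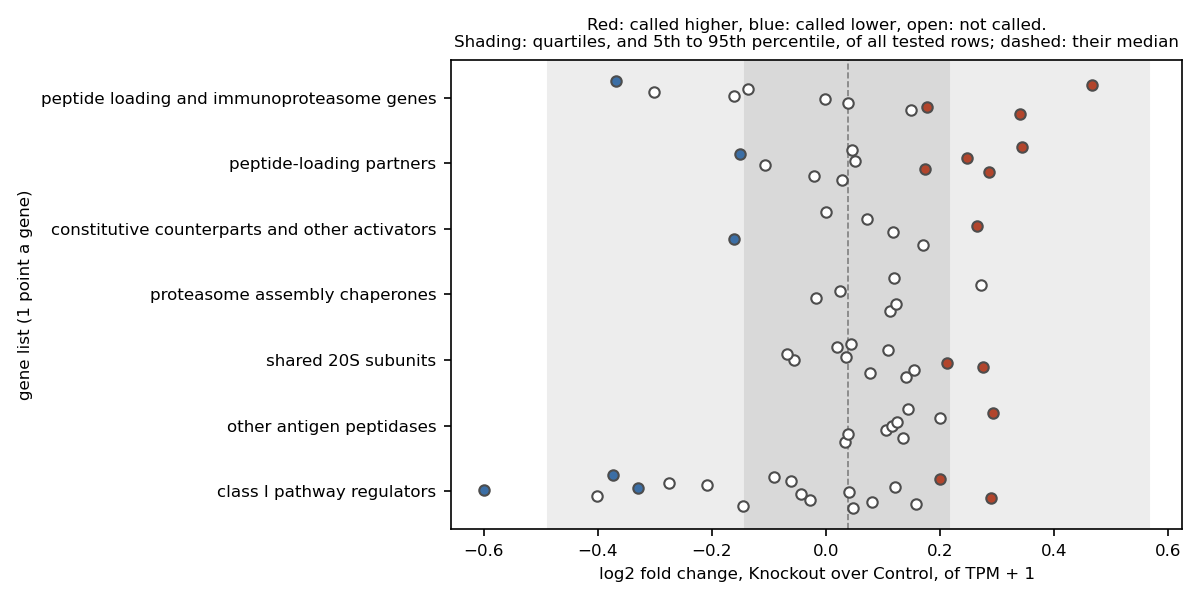
Log2 fold change of TPM + 1, knockout over Control (x axis), of each gene (point) in the 10 genes described here and in 6 lists of the same pathway (rows); red was called higher, blue lower, open not called, and shading marks the central part of all tested rows. The regulators reach lowest, with Jak2 at -0.60, and 8 of 9 other peptidases are open points.

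Over all tested rows 28.5% were called. Elsewhere in the proteasome, 2 of 11 shared core subunits (18.2%) rose on the log2 scale and 0 fell, with a median of 0.08. Psma4 rose by 0.27 and Psma5 by 0.21. Both calls were lost without Control replicate 1 or 3, with adjusted p up to 0.0529 for Psma4 and 0.119 for Psma5, and that of Psma5 also in 7 other alternatives. By limma 0 of 6 assembly chaperone genes were called, with a median of 0.12, and 1 of them, Psmg3 (0.27), had an unadjusted p under 0.05. Psmg3 was called without the trend and robust settings (adjusted p = 0.0389). Of 9 other antigen peptidases with a row, 1 rose (11.1%) and 0 fell, with a median of 0.12. This was Thop1 (0.29), a cytosolic peptidase that destroys class I peptides, whose call ended without any Control library, without knockout replicate 2 and under median-of-ratios scaling.

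Of 18 regulators of the pathway, 2 rose, 3 fell and 13 were not called, with a median log2 fold change of -0.05. The 27.8% called is near the 28.5% of all tested rows. Jak2, a kinase of the interferon gamma receptor, stood at 66.1, 63.2 and 47.8 TPM in knockout libraries and at 88.5, 88.8 and 89.9 TPM in Control libraries. Jak2 fell by 0.60 on the log2 scale (SE 0.11), with a limma adjusted p of 0.0108, and the call held in all 14 alternatives. Tyk2, a kinase of the type I interferon receptor, fell by 0.37 and Nlrc5, the class I coactivator gene, by 0.33 (limma adjusted p = 0.0323 and 0.0471). Irf2, an interferon regulatory factor gene, rose by 0.29 on the same scale (limma adjusted p = 0.0171), while Irf1 had a log2 fold change of -0.03 and was not called. The calls of Tyk2, Nlrc5 and Irf2 each ended in 4 to 7 of the 14 alternatives, among them several left-out libraries, with adjusted p up to 0.139.

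The libraries of a group differed from each other along a pattern most of the 10 genes shared. Knockout replicate 3 was the lowest knockout library for 7 of the 10 genes and Control replicate 1 the highest Control library for 7. The matching shares of all tested rows were not counted. Control replicate 1 was also the shallowest library, at 36445458 reads, and the part of depth was not tested. In knockout replicate 3, Psmb9 lay 0.27, Tap1 0.24, Psme1 0.17 and Tap2 0.15 below the knockout mean on the log2(TPM + 1) scale, whereas the median over all tested rows was -0.01. Psmb8 and Psmb10 lay within 0.01 of the knockout mean in that library. Across the 6 libraries, after each group's mean was removed, Pearson's r was 0.97 between Tap1 and Psme1, 0.88 between Tap1 and Psmb9, and -0.83 between Tap1 and Erap1. These r values were picked from all pairs of the 10 genes. Erap1 and Psmb8 had -0.94, and pairs without Erap1 went as low as -0.15 (Tapbp and Psme2). All describe 6 libraries, within each of which all genes share depth and handling. Removing the group means leaves fewer independent values than libraries.

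**Figure D5:**
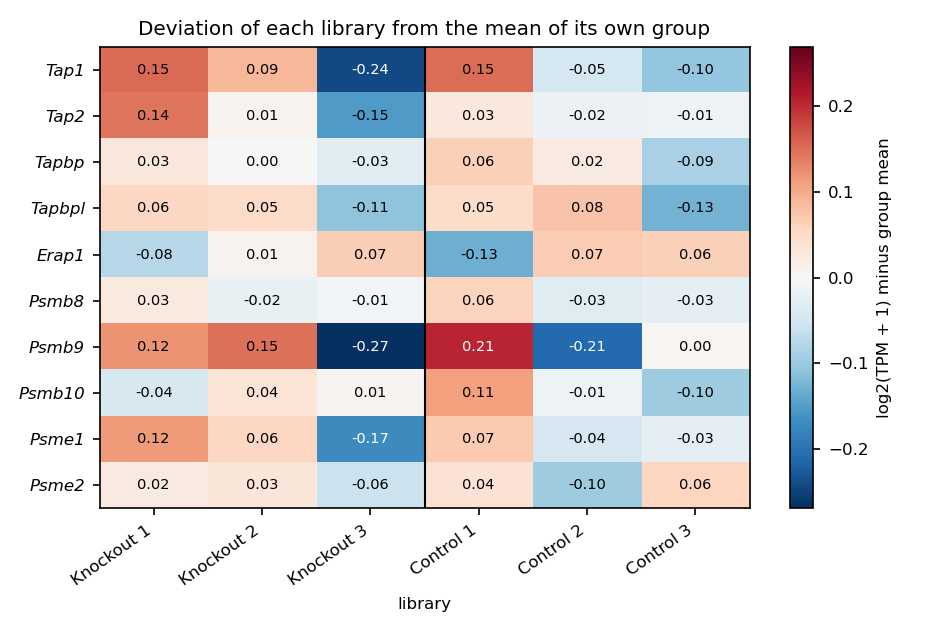
Deviation of each library (columns, knockout left of Control) from the mean of its own group, in log2(TPM + 1), for the 10 genes (rows), with the value in each cell. Knockout replicate 3 is low for Psmb9 (-0.27) and Tap1 (-0.24), and Erap1 runs the other way (0.07).

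In order of mean TPM, knockout libraries ran Psme2, Tapbp, Psme1, Psmb8, Psmb10, Tap1, Erap1, Tap2, Psmb9 and Tapbpl. The values overlapped between Psmb10 and Tap1, Tap1 and Erap1, Tap2 and Psmb9, and Psmb9 and Tapbpl. In Control libraries the order was Psme2, Psme1, Tapbp, Tap1, Psmb8, Psmb10, Erap1, Tap2, Tapbpl and Psmb9. Overlap there lay between Psme1 and Tapbp, Psmb8 and Psmb10, Tap2 and Tapbpl, and Tapbpl and Psmb9. Both orders rest on the summed exon length. TPM was also recalculated over the length of the longest coding transcript, without rescaling to the library total. Psme1 then averaged 325 and Tapbp 276 in knockout libraries, and Psme1 324 and Tapbp 199 in Control libraries. On that length Psme1 stood above Tapbp in both groups.

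Other genes followed these profiles closely over the 6 libraries, which is common at this number of points. The row most like Tapbp was Rtn4ip1 (Pearson's r = 0.9996), the one most like Tap1 was the RNA sensor gene Dhx58 (r = 0.996) and the one most like Psmb8 was the adhesion gene Nectin1 (r = 0.994). An r above 0.9 was reached by 1154, 1127 and 566 tested rows for Tapbp, Tap1 and Psmb8.

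Several genes share exon bases with a neighbour. Tapbp shares 1053 bp with Zbtb22 and Gm19412, and Zbtb22 stood at 27.0 ± 1.75 TPM in knockout and 29.6 ± 3.10 TPM in Control libraries (SD, n = 3 each). Erap1 shares 834 bp with Cast on the opposite strand. Cast fell by 0.37 on the log2 scale (limma adjusted p = 0.0183), the direction opposite to Erap1. Tapbpl, Psmb10 and Psme2 share no exon base with another annotated gene.

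The summed level of 11 macrophage markers, 7 of them with a row, was 10847 to 12269 TPM in knockout libraries, against 7700 to 8342 TPM in Control libraries. Most of that gap was Lyz2, and the other 6 summed to 2722 to 2745 TPM in knockout and 2619 to 2734 TPM in Control libraries. Of the 6 tested, Csf1r, Lyz2 and Itgam rose, Adgre1 fell, and Cd68 and Fcgr1 were not called. Of 6 neutrophil markers 2 had a row, and they went opposite ways by limma. S100a8 rose to 19.0 ± 3.34 TPM in knockout libraries, against 5.01 ± 0.762 TPM in Control libraries, and Csf3r fell to 7.39 ± 0.605 TPM in knockout libraries, against 11.9 ± 1.43 TPM in Control libraries (SD, n = 3 each). Their sums were 23.3 to 29.2 TPM in knockout and 16.2 to 17.8 TPM in Control libraries, while S100a9, Ly6g, Mpo and Elane had none. Of 5 B cell markers Ighm and Cd79a had a row, with sums of 11.9 to 12.7 TPM in knockout and 7.92 to 10.2 TPM in Control libraries. Dendritic cell markers, 4 of 6 with a row, summed to 6.24 to 7.02 TPM in knockout and 5.36 to 8.26 TPM in Control libraries, and stromal and erythroid markers stayed below 1 TPM. Their part in the differences above was not tested.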

How the data were processed

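The deposited table of TPM values named no unit in its header, so the unit was read from its columns, which sum to 991721 to 998572. Per the submitters' processing notes, which give no roles, the build GRCm39 and the tool DESeq2 belong to the study. The aligner and annotation are not given in the sources used here. Value columns left unmapped numbered 0. Reads behind the TPM were recovered with GENCODE M21 union exon lengths (an earlier build, used for lengths and overlaps alone): 99.8% of rows were whole within 0.02 read at the annotated length or within 0.003 read at another, and 28 were whole at no single length. Of recovered values of 1 to 12 reads, 70.96% were even, so a read here may not be 1 independent fragment. The reason was not tested, and limma-voom used these reads. The whole table was fitted with limma 3.58.1 in R 4.3.3 (lmFit, eBayes with trend and robust settings, two-sided) on log2(TPM + 1), keeping rows that averaged 1 TPM or more. Fold changes on that scale understate low genes. Ratios were tested by exact permutation in scipy 1.17.1. The limma script was run on simulated data whose changes were larger than those of any of the 10 genes. That run therefore does not cover changes of their size. Promoters are RefSeq's (GRCm38.p6), 8 of 10 genes matched. The 10 genes and the lists were chosen with earlier results of these data known. From each list, called genes are named, at most the 3 largest in each direction. Alternatives were 2 scalings, a pseudocount of 0.1, no filter, plain eBayes, limma-voom, a replicate block and each library left out. The removal of the 28 rows, the levels over the longest coding transcript, the Psmb9/Tap1 ratio and the marker sum without Lyz2 were added after the data were seen. The values of 1 regulator gene, counted in its list, and a motif are not reported here.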

Additional observations from a re-analysis of the deposited data

How the results depend on the processing

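Of the 10 genes, Tapbp and Erap1 kept direction and call in all 14 alternatives. The number called higher was 2 or 3 in every alternative. The number called lower was 1 as planned, 2 under median-of-ratios scaling and 2 under upper-quartile scaling (with Psme2), and 3 under limma-voom on recovered reads (with Tap1 and Psme2). With 1 library left out in turn it ranged from 0 to 2. Over all tested rows, calls with 1 library left out ranged from 1313 to 2096 higher, against 2406 with all libraries, and from 669 to 1219 lower, against 1313. Leaving out Control replicate 1 or 3 or knockout replicate 2 moved the rises to 1408, 1313 and 1584, and leaving out Control replicate 1, 2 or 3 or knockout replicate 2 moved the falls to 721, 772, 669 and 868. Under median-of-ratios scaling 1821 rows were higher and 1714 lower, so the share of rises rests on the scaling. The median log2 fold change of all rows was 0.039 as planned and 0.003 under that scaling. Under upper-quartile scaling it was -0.008. Limma-voom, which changes the input and the model too, gave 2298 higher and 1777 lower. The deviations of same-numbered libraries correlated at 0.134, -0.0766 and 0.0315, which shows no pairing by number but cannot exclude it. A replicate block gave 2 genes called lower (Tap1 joined Tapbpl at adjusted p = 0.0219), and among the other named genes it ended the calls of Psmb6 and Prkcsh (log2 fold change Psmb6, adjusted p = 0.0568; log2 fold change Prkcsh, adjusted p = 0.0654). Why these calls moved was not tested. Psmb10, Tap2, Psmb9 and Psme1 were called under none of the 14 alternatives.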
